A study of Malus hupehensis with 3 samples.

Results

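mdm-miR166 is the apple form of miR166, a microRNA (miRNA) found throughout land plants, and its main known targets are the class III homeodomain-leucine zipper (HD-ZIP III) transcription factors. The data on it were chosen by name: every known miRNA whose name begins with mdm-miR166, which were 9 of the 207 known miRNA names, and every apple gene model paired with one of these names in the degradome records, which were 9 of 271 gene models. All 9 names had 1 mature sequence, and all 9 gene models had been annotated by the study to Arabidopsis HD-ZIP III genes, so the label miR166 and HD-ZIP III held for every member.

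The study asked which miRNAs differ between the adult and juvenile vegetative phase of *Malus hupehensis*, an apple rootstock that sets most of its seed without fertilization. In June, leaves were taken from 18 trees aged 6 years, at the top of the trees for the adult phase (A) and low down for the juvenile phase (J), and RNA of each kind was pooled. A and J were each sequenced as 1 small RNA library, and J also as 1 degradome library, in which the 5′ ends of cut messenger RNAs are read. No group has a replicate, so there is no test of the phase and every A over J ratio compares 2 libraries. Phase and height on the tree cannot be told apart, and the degradome was analysed here in J only. No mRNA levels were used here, so the leaf samples were not checked against marker genes. In many plants miR156 is high in the juvenile and miR172 in the adult phase. The A over J ratio per clean read was 0.0497 for mdm-miR156 (exact 95% interval 0.0492 to 0.0503), with 32324 reads in A against 543020 in J. For mdm-miR172 it was 1.80 (1.76 to 1.84), with 26775 reads in A against 12433 in J. This ratio falls short of the limit of 2 used below to call a difference.

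In Arabidopsis, HD-ZIP III proteins specify the upper (adaxial) side of the leaf and act in the shoot meristem and in vascular tissue, while miR166 and the closely related miR165 keep their transcripts out of the lower side. The miRNA guides an ARGONAUTE protein to a site in the part of the transcript that encodes the START domain, a lipid-binding domain, and the transcript is cut opposite bases 10 and 11 of the miRNA. Changes in this site that weaken the pairing give dominant leaf polarity mutants in Arabidopsis. A degradome count at a site is a number of RNA fragments that begin there, so it rises with the amount of transcript as well as with cutting and is not a rate of cleavage.

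The mature sequence and the sites are shown because the gene models differ from each other in a few bases that bear on the pairing and on which reads can be told apart. The mature sequence, 21 nt, was the same for mdm-miR166a to mdm-miR166i, and its seed, bases 2 to 8 from the 5′ end, is in capitals.
mdm-miR166: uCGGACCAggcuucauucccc
No other of the 256 distinct sequences in the count tables, known or predicted, carried this seed, and the nearest of them differed from mdm-miR166 at 7 or more bases in every ungapped comparison of 18 bases. The mature sequence of mdm-miR166 is thus unlike every other listed sequence. Reads were matched with at most a single mismatch, so its counts can include reads that differ from the printed sequence.

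Each degradome record shows 31 bases of the gene model, with the first base of the cut fragment at base 15. The 9 gene models had 5 distinct windows, printed 5′ to 3′ with the bases that vary among them in capitals.
MDP0000050082 and MDP0000943529 (PHABULOSA): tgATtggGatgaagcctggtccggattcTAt
MDP0000426630 (REVOLUTA): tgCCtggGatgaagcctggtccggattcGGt
MDP0000005879 and MDP0000126553 (ATHB8): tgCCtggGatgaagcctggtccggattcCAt
MDP0000251484 and MDP0000313059 (CORONA): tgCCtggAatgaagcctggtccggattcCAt
MDP0000236500 and MDP0000242861 (REVOLUTA): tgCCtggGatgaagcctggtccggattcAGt
The names in parentheses are those of the Arabidopsis genes to which the study matched the gene models, AT2G34710 (PHABULOSA), AT5G60690 (REVOLUTA), AT4G32880 (ATHB8) and AT1G52150 (CORONA, also known as ATHB15). In Arabidopsis, PHABULOSA specifies the adaxial side of the leaf, REVOLUTA acts in lateral meristems and in the formation of fibres, ATHB8 is an early marker of vascular precursor cells, and CORONA acts in the meristem and in vascular development. Of the 31 bases, 26 were shared by all 9 gene models and 5 varied. Only 2 of the variable bases lay within the 21 that pair with the miRNA, opposite its bases 17 and 21, and the other 3 lay outside the paired stretch.

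The paired stretch came in 3 forms, here with capitals for the bases that do not form a Watson-Crick pair with mdm-miR166.
CORONA: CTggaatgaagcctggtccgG
REVOLUTA and ATHB8: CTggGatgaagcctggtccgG
PHABULOSA: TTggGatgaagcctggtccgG
In all 9 gene models, bases 20 and 21 at the 3′ end of the miRNA were unpaired and base 1 formed a G:U wobble. Bases 2 to 16 were paired without exception, which takes in the whole seed and both sides of the cut. The gene models differed in pairing at base 17 alone, which was a wobble in 7 of them and a Watson-Crick pair in the 2 CORONA gene models. The authors' PairFinder score, a penalty of 1 for a mismatch and 0.5 for a wobble, was accordingly 2.5 for the CORONA gene models and 3.0 for the other 7.

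**Figure D1:**
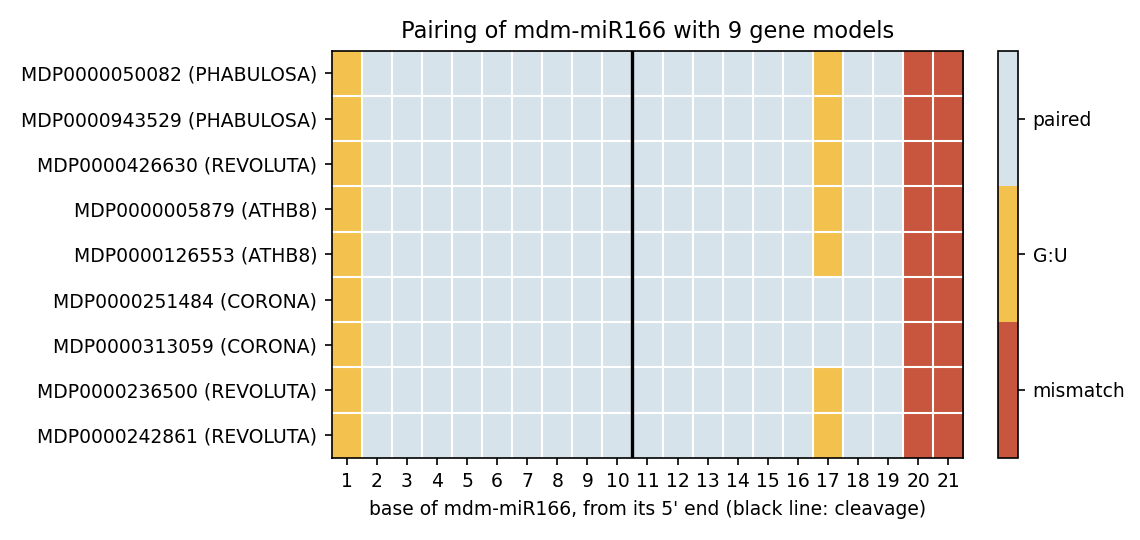
Pairing of mdm-miR166 with its 9 gene models, 1 row a gene model and 1 column a base of the miRNA counted from its 5′ end. Light cells are Watson-Crick pairs, yellow cells G:U wobbles and red cells mismatches, and the black line marks the cut between bases 10 and 11. Bases 2 to 16 are paired in all 9 rows, and base 17 is paired only in the 2 CORONA gene models.

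All 9 gene models had the cut opposite base 10 of mdm-miR166, the place at which a miRNA-guided cut is looked for. Over the known miRNAs this held for 129 of 159 combinations of family, gene model and site (81.1%). mdm-miR166 was 1 of 15 families of 25 in which it held for every site. The records were chosen by the authors' PairFinder, and the 9 gene models have 5 distinct windows, so they are not 9 separate observations. Each of the 9 gene models had a single site, with no record at a neighbouring base, whereas 5 of the 25 families had more than 1 site per gene model. None of the 9 gene models was paired with any other miRNA, known or predicted, and the 10 bases that follow the cut were found in no record of another miRNA. The 9 names gave identical records, 81 in all, because they share 1 sequence.

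The site lay at a like place in all the gene models. Its first base was 541 to 616 bases from the start of the gene model, behind 180 to 205 whole codons, and every one of these positions fell on the first base of a codon, counted from the start. The gene models are coding sequences, as the length of each is a multiple of 3. In 8 of them the site lay at 20.01% to 23.5% of the length. The exception was the CORONA gene model MDP0000251484, which is 1713 bases long, with its site at base 616, or 35.96% of its length. The other CORONA gene model, MDP0000313059, is 2745 bases long with its site 54 bases nearer to the start, at base 562. A single codon position was also found in 7 of the 11 other families with 4 or more gene models, so it does not set mdm-miR166 apart.

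The highest count at a site was listed for both PHABULOSA gene models. Their windows are the same, so the records do not say how these fragments divide between them. MDP0000050082 and MDP0000943529, cut at base 598 of 2553 and 2556 bases, had a count of 330 each (exact Poisson 95% interval 295 to 368). The REVOLUTA gene model MDP0000426630, cut at base 571 of 2430 bases, had 281 (249 to 316). These intervals overlap, and the difference between the PHABULOSA and the higher REVOLUTA count was not tested.

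A count of 225 (197 to 256) stood at 4 gene models, both of ATHB8 and both of CORONA. The ATHB8 gene models are MDP0000005879, cut at base 541 of 2487, and MDP0000126553, cut at base 577 of 2883. From the cut to the end of the window, 17 bases, these 4 gene models had the same sequence, and the base in which CORONA differs lies before the cut, where a fragment that begins at the cut does not reach. The records therefore do not say how the 225 fragments divide between ATHB8 and CORONA.

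The lowest counts were those of the other REVOLUTA gene models, MDP0000236500 with a length of 2529 bases and MDP0000242861 with 2523, both cut at base 571 and both at 67 (51.9 to 85.1). The count at MDP0000426630 was 4.19 times as large (3.20 to 5.56, exact binomial interval on the split of the counts). The REVOLUTA gene models share the cut position and all paired bases, and their windows differ in 1 base, behind the paired stretch. MDP0000236500 and MDP0000242861 have the same window, so the records do not say how the 67 fragments divide between them. How much transcript each gene model gave was not measured.

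Counting gene models with the same bases after the cut and the same count once, the 9 gene models stood for 4 signatures, at 330, 281, 225 and 67. Their counts sum to 903, whereas the sum over gene models, 1975, counts shared fragments more than once. These intervals cover counting error only, and they take the deposited count to be a number of fragments, which the records do not state.

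**Figure D2:**
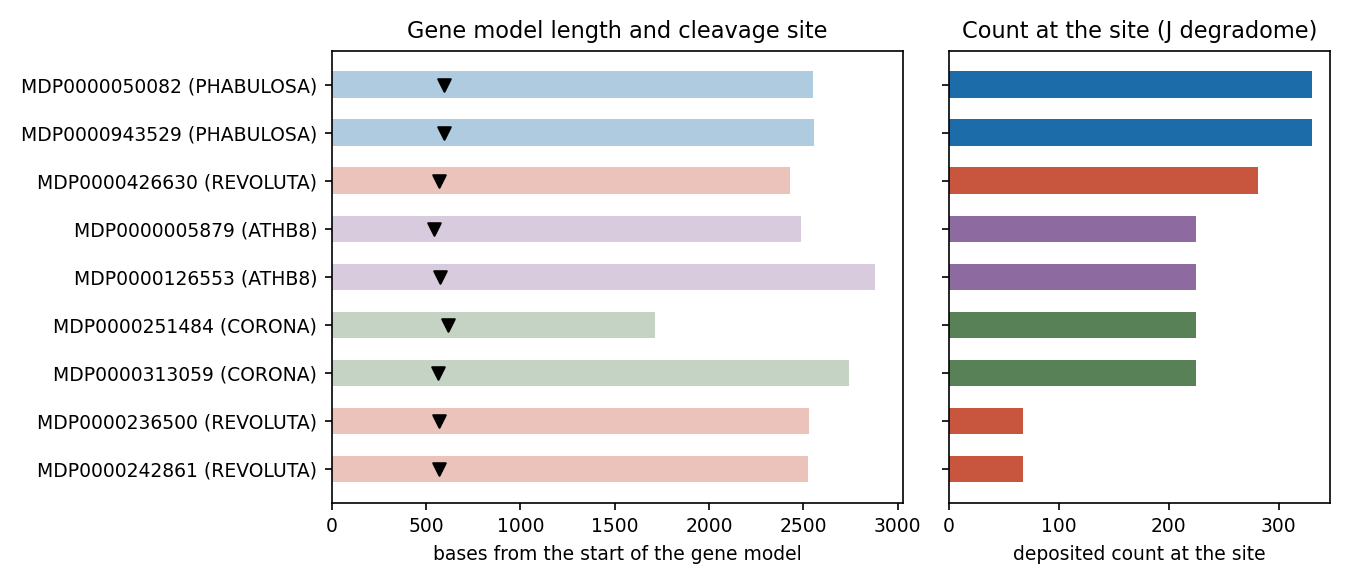
The 9 gene models of mdm-miR166, with bars for length in bases and triangles for the cut on the left, and bars for the deposited count at the cut in the J degradome on the right. Colours stand for the Arabidopsis gene each was matched to. The sites lie between bases 541 and 616, and the REVOLUTA gene models hold both the second highest count, 281, and the lowest, 67.

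Among the 25 families of known miRNAs with degradome records, mdm-miR166 had rank 4 by number of gene models. It came after mdm-miR482 with 30, mdm-miR156 with 15 and mdm-miR858 with 13. mdm-miR166 had 4 signatures, as many as mdm-miR171, mdm-miR172 and mdm-miR390, against 16 in mdm-miR156, 8 in mdm-miR482 and 5 in mdm-miR858 and mdm-miR3627. Its highest count, 330, had rank 10, between the 365 of mdm-miR169 and the 321 of mdm-miR159 and mdm-miR319, and the highest of all was 1661, for mdm-miR160. Its median count over gene models was 225, with rank 7, between mdm-miR319 with 321 at its single gene model and mdm-miR828 with 207.5. The median over all 159 sites was 76. The file holds no count below 25, so sites with fewer fragments are not seen for any family.

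The pairing of mdm-miR166 was less complete than that of many families with cut targets. Its median score of 3.0 was above those of 12 families, equal to those of 5 and below those of 7. For instance, mdm-miR171 had a median score of 0 and mdm-miR156 and mdm-miR172 of 0.5, while mdm-miR167, which targets auxin response factors, had 3.5 together with the highest median count, 1329. The windows of mdm-miR166 were close to uniform: 26 of the 31 bases were shared by its 9 gene models, against 31 for the 4 gene models of mdm-miR171, 27 for the 6 of mdm-miR167, 26 for the 5 of mdm-miR393 and 24 for the 13 of mdm-miR858. In the other 7 families with 4 or more gene models fewer bases were shared, 22 in mdm-miR160 and mdm-miR172, 13 in mdm-miR169, 11 in mdm-miR482, 9 in mdm-miR159, 7 in mdm-miR398 and 1 in mdm-miR156. Windows were placed by the recorded cut with the highest count in each gene model, and were not aligned to the miRNA. The cut lay opposite base 10 at 24 of 31 sites in mdm-miR156, 1 of 6 in mdm-miR159 and 2 of 4 in mdm-miR398. Windows of these families may thus be shifted against each other, so their low values do not measure how alike the target sites are. All these values describe 1 library, with no test.

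**Figure D3:**
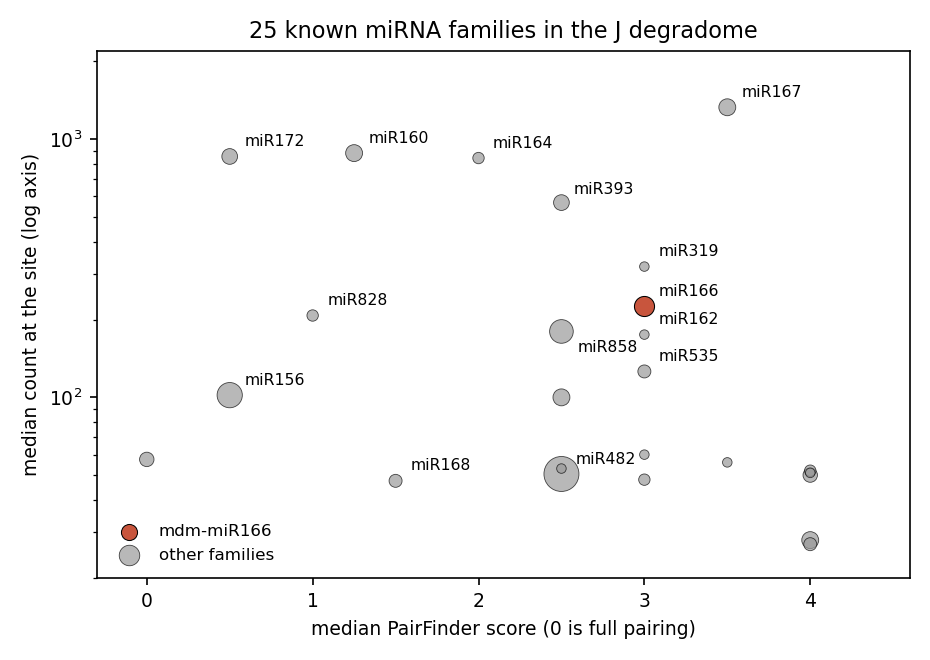
Each point is 1 of the 25 known miRNA families in the J degradome, placed by its median PairFinder score (horizontal) and its median count at the site (vertical, log axis), with larger points for more gene models. mdm-miR166, in red, lies at a score of 3.0 and a count of 225.

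In the small RNA libraries, mdm-miR166 was the most abundant known sequence in A and the second most abundant in J. The largest count among its names was 318768 reads in A and 312715 in J. Per 1000000 clean reads (RPM), these were 19652 in A and 23083 in J. In A the next sequence was mdm-miR482a-5p with 121128 reads, and mdm-miR166 had 2.63 times as many. In J it stood between the sequence of mdm-miR156ab and mdm-miR156ac, with 446199 reads, and mdm-miR535d, with 188682.

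Its share of the known miRNA reads, with each distinct sequence counted once, was 40.7% in A (exact 95% interval 40.5 to 40.8) and 20.3% in J (20.3 to 20.4). Its share of all clean reads was 1.97% in A (1.96 to 1.97) and 2.31% in J (2.30 to 2.32). The order of the libraries was thus opposite on these 2 scales. With mdm-miR156 and mdm-miR535 left out of the known reads, the share was 43.8% in A and 41.6% in J.

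The 9 names had nearly the same counts. In A, mdm-miR166a, mdm-miR166g and mdm-miR166h had 318332 reads, mdm-miR166b had 318381, mdm-miR166d 318388, mdm-miR166c 318528, mdm-miR166f 318618, and mdm-miR166e and mdm-miR166i 318768. In J, mdm-miR166a and mdm-miR166g had 312466 reads, mdm-miR166h 312467, mdm-miR166d 312508, mdm-miR166b 312528, mdm-miR166c 312586, mdm-miR166f 312654, and mdm-miR166e and mdm-miR166i 312715. The names thus spanned 436 reads in A, or 0.137% of the largest count, and 249 in J, or 0.0796%, and the largest counts belonged to the same names in both libraries. One sequence cannot differ from itself, so these entries were taken to share reads and are not replicates. The A over J ratio was 0.851 for each of them.

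On the clean-read scale, mdm-miR166 had an A over J ratio of 0.851 (exact 95% interval 0.847 to 0.856), a log2 ratio of -0.23. A sequence was called different when its ratio reached 2, or 0.5 in the other direction, and its interval left out 1, among sequences that had 10 reads or more in either library. By this rule mdm-miR166 was not called, while 27 of the 59 known sequences tested were (45.8%), of which 22 were lower in A (37.3%) and 5 higher (8.47%). Some of these sequences may share reads, such as those of mdm-miR156aa and mdm-miR156p, each with 158 reads in A and 7244 in J. Of the 59, 37 had a smaller ratio than mdm-miR166 and 21 a larger one, and the median over the 56 that reached 10 reads in each library was 0.620.

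**Figure D4:**
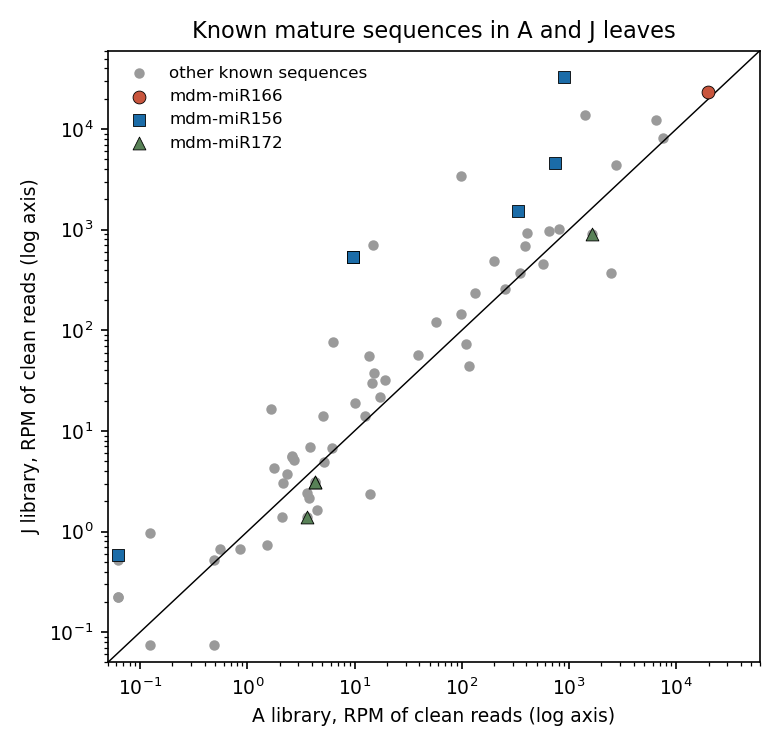
RPM of clean reads in A (horizontal) and in J (vertical) for the 67 known mature sequences read in both libraries, on log axes, with a line of equal levels. mdm-miR166, in red, lies at 19652 RPM in A and 23083 RPM in J, just above the line. The mdm-miR156 sequences lie well above it.

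The direction for mdm-miR166 depended on the scale. The ratio was 0.851 with clean reads, 1.02 without scaling, 1.05 with the known miRNA totals less mdm-miR156 and mdm-miR535, 1.35 with TMM factors from edgeR and 1.37 with the median ratio set to 1. With the known miRNA totals it was 2.001 (1.99 to 2.01), at the limit for a call of higher in A. The total of the known reads was itself 0.426 times as large in A as in J, in RPM, so this scale raises every A over J ratio. On these scales the calls over all known sequences ran from 22 lower and 5 higher in A with clean reads to 9 lower and 28 higher with the known totals less mdm-miR166. No direction of mdm-miR166 between A and J held on all of these scales.

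**Figure D5:**
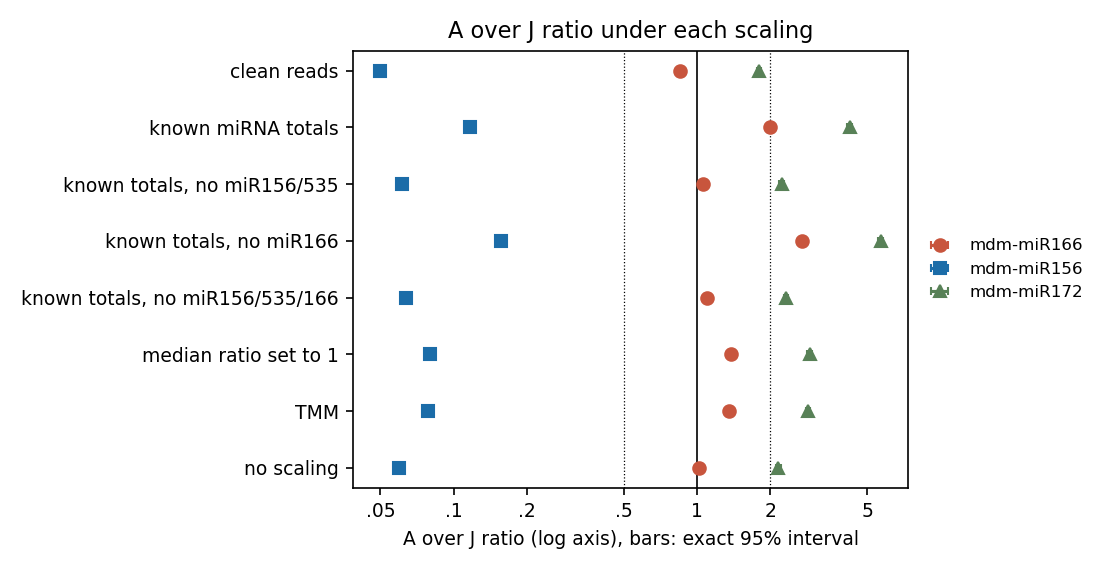
A over J ratios (log axis) of mdm-miR166, mdm-miR156 and mdm-miR172 under 8 scalings of the libraries, with exact 95% intervals and dotted lines at 0.5 and 2. mdm-miR166 crosses 1, from 0.851 with clean reads to 2.69 with the known totals less its own reads, while mdm-miR156 lies below 0.5 and mdm-miR172 above 1 on every scale shown.

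Among 20 other known sequences that reached 1000 reads in A and in J, those with the log2 ratio nearest to that of mdm-miR166 were mdm-miR482a-5p with an A over J ratio of 0.924 (0.916 to 0.931), mdm-miR167h to mdm-miR167j with 0.783 (0.765 to 0.802), mdm-miR482a-3p with 0.931 (0.896 to 0.967), mdm-miR164b to mdm-miR164f with 0.971 (0.928 to 1.02) and mdm-miR1511 with 0.684 (0.640 to 0.731). None of these intervals includes the ratio of mdm-miR166. With 2 libraries, likeness here means a like ratio and no more.

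Families known from Arabidopsis for roles in leaf polarity, the meristem or leaf growth were set beside it. Of 9 such families, mdm-miR166 among them, 4 were called lower in A and 0 higher, whereas 19 of the 38 known families tested were called (50%), 15 of them lower in A (39.5%) and 4 higher (10.5%). These directions depended on the scale: the list had 2 families lower and 2 higher in A with known miRNA totals, 2 lower and 3 higher with these less mdm-miR166, and 3 lower and 0 higher on each of the other 5 scales. The median ratio of the 9 was 0.549, also with mdm-miR319 at its bound, and that of the 38 was 0.574, so the list lay near the background.

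The families called lower in A on the clean-read scale were mdm-miR160, mdm-miR319, mdm-miR394 and mdm-miR396. mdm-miR160, which targets auxin response factors, had a ratio of 0.101 (0.0652 to 0.151), from 27 reads in A and 223 in J. mdm-miR396, which in Arabidopsis restrains growth-regulating factors, had a ratio of 0.446 (0.419 to 0.475), from 1488 reads in A and 2785 in J. It was called on the clean-read scale alone, and its ratio on the 7 other scales ran from 0.534 without scaling to 1.41 with the known totals less mdm-miR166. mdm-miR394, known in Arabidopsis for a role in the meristem, had a ratio of 0.128 (0.0141 to 0.568), from 2 reads in A and 13 in J, and its call was lost with known miRNA totals, at 0.302 (0.0331 to 1.33), and with these less mdm-miR166, at 0.405 (0.0444 to 1.79). For mdm-miR319, a regulator of leaf growth through TCP factors in Arabidopsis, there were 0 reads in A against 20 in J. The ratio was at most 0.125 if a count of 0 allows 3 reads, and the exact interval, which also takes in the counting error of the J reads, reached 0.169.

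The other families of the list were not called on the clean-read scale. mdm-miR164 had a ratio of 0.971 (0.928 to 1.02), mdm-miR168, which targets ARGONAUTE1 in Arabidopsis, 0.668 (0.651 to 0.685), and mdm-miR390, which in Arabidopsis triggers the small RNAs that limit auxin response factors of the lower leaf side, 0.622 (0.398 to 0.966). mdm-miR167 had a ratio of 0.549 (0.545 to 0.553), from 118832 reads in A and 180793 in J. All of these ratios were above 1 with known miRNA totals, where mdm-miR164 was called higher in A at 2.28. With these totals less mdm-miR166, mdm-miR164 was called higher at 3.06 and mdm-miR168 at 2.11. In reads, mdm-miR166 held more than the other 8 families together in both libraries.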

How the data were processed

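Small RNAs of pooled A and J leaves were sequenced as 1 library each and J leaves also as 1 degradome library. Reads were size-selected and cleaned by the authors and matched, with at most a single mismatch, to the apple miRNAs of miRBase, while Mireap gave predicted miRNAs. The deposited values are unnormalized read counts of 380 entries, 208 known and 172 predicted. The deposited counts sum to 4272351 in A and 6275651 in J, with names that share reads counted repeatedly. Degradome fragments were placed on the apple genome by the authors, and their PairFinder program assigned miRNAs to the cuts. The deposited degradome records give the site, the count and a score. That score equalled the mismatches plus 0.5 for each wobble in all 2204 records. The genome build and the versions of the aligner and of PairFinder are not given in the sources used here, and no genome was used here.

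Names and mature sequences came from the study's list of known miRNAs, and entries were named by sequence and count. A sequence with several names took the largest of their counts, so that names of 1 sequence did not repeat its reads. Near-identical sequences of a family may still share some, so family totals and numbers of called sequences may count some reads repeatedly. The scale was the total of clean reads the study states, which was 1.20 times as large for A as for J. Intervals at 95% are Clopper-Pearson for a ratio or share and exact Poisson for a single count, from SciPy 1.17.1 in Python 3.11.15. They cover counting error only, since reads amplified by PCR and lacking molecular identifiers can repeat a molecule. TMM factors came from edgeR 4.0.16 (R 4.3.3), which was used for no test. The base of the cut was taken as base 15 of the window because the 3 gene models cut at base 15 have windows that begin with ATG. The ratio, its interval and the reading of the alignments were tested on simulated data. The members, the list of leaf development families and the rules were chosen with earlier results of these data known. The names were all mdm-miR166 names and gene models, the 5 sequences of nearest ratio, the listed families, the phase markers, and the families next in rank, and other families named for their score, windows or rank were chosen after their values were seen. Alternatives were other scalings, other ways to count a sequence that names share, other read minimums and limits, and other limits on the degradome records.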

Additional observations from a re-analysis of the deposited data

How the results depend on the processing

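No paired analysis was possible because each group is 1 library, and for the same reason no library could be left out. The A over J ratio of mdm-miR166, 0.851 with clean reads, was 2.001 with known miRNA totals, 2.69 with these less mdm-miR166, 1.05 with these less mdm-miR156 and mdm-miR535, 1.09 with all 3 families left out (chosen after seeing the data), 1.37 with the median ratio set to 1, 1.35 with TMM and 1.02 without scaling. The first 2 of these alternatives passed the limit for higher in A. It was 0.851 with the smallest count among the names or with their sum. These differences follow from the totals divided by, since the reads are the same. These first alternatives also turned the ratio of mdm-miR396, to 1.05 with known miRNA totals and 1.41 with these less mdm-miR166, and those of mdm-miR164 to 2.28 and 3.06, mdm-miR167 to 1.29 and 1.73, mdm-miR168 to 1.57 and 2.11 and mdm-miR390 to 1.46 and 1.96. mdm-miR164 was above 1 on all 7 other scales, and mdm-miR168 also with TMM and with the median ratio set to 1. The number of known sequences called, 27, was 15 with limits of 4 and 0.25 and lay between 22 and 37 under the other alternatives. It comprised 10 lower and 22 higher in A with known totals and 13 of each with TMM. The share of mdm-miR166, 40.7% in A and 20.3% in J, was 67.5% and 45.1% with each name counted, 43.8% and 41.6% without mdm-miR156 and mdm-miR535, and 42.3% and 21.1% with the smallest count among names. Of the 9 gene models, 7 had a count of 100 or more, 3 passed a limit set between 225 and 281, and 2 had a score of 2.5 or less. The sites lay opposite base 10 in 0 gene models if the cut is placed at base 14 of the window, and in 0 at base 16. Both values follow from the fixed alignments, so they do not test where the cut lies. The 4 signatures became 5 with the whole window compared. The leaf development list, 4 lower and 0 higher in A, had 2 lower and 2 higher with known totals, 2 lower and 3 higher with these less mdm-miR166, and 3 lower and 0 higher under the other 5 scalings, all added after seeing the data. Replicates are missing, so no depth of reading can give the spread between trees.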
